A study of Mus musculus with 30 samples.

Results

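The comparison set terminal ileum of newly colonized mice against that of specific-pathogen-free mice at 6 weeks of age. It used 6 of the 30 libraries of a series on the effects of the microbiota on the gut: the 3 untreated libraries labelled COL and the 3 untreated libraries labelled SPF, chosen by their titles. All 6 came from C3H/HeOuJ mice, an inbred strain. COL mice were raised germ-free and given the microbiota of specific-pathogen-free animals in week 5, so their tissue was taken soon after microbes arrived. SPF mice are labelled specific-pathogen free, a state in which animals carry microbes but are free of a defined set of pathogens. Germ-free libraries of the same age (GF, 3 libraries) and COL and SPF libraries at 10 weeks (3 each) are given beside them. Sex, litter, cage, diet and the day of sampling after colonization are not stated in the labels. Total RNA came from whole tissue and was read as 3′ tags, one stretch near the poly(A) end of each transcript, so a level is a sum over all cells of the piece. Fewer cells of a type and less RNA per cell therefore cannot be told apart.

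The ileal mucosa meets luminal microbes through an epithelium that takes up bile acids and fat and, in the crypts, Paneth cells that release antimicrobial proteins. Beneath it, plasma cells make IgA, which is joined into dimers by the J chain and carried into the lumen by the polymeric immunoglobulin receptor. T cells lie in the lamina propria and within the epithelium as intraepithelial lymphocytes. Their interferon-gamma raises MHC class II, the peptide-presenting molecules of antigen-presenting cells, on epithelial cells as well, through the coactivator CIITA. These adaptive arms are sparse in germ-free mice and develop after colonization.

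Reads assigned to genes numbered 5075595 to 9088573 in the 6 libraries, and the 10 most abundant genes took 11.8 to 18.8% of them. The ileal bile acid binding protein gene Fabp6 was at 26028 to 33632 CPM (reads per 1e6 reads, scaled to library size) in COL and 24337 to 30338 CPM in SPF, while the colonic genes Aqp8 and Hoxb13 had no read. The pancreatic genes Cpa1 and Pnlip and the red cell gene Hbb-bs had no read either. Fcer2a, a marker of lymphoid follicles, had no read in the 6 libraries, and Cr2, another, had 12 reads in COL and 8 in SPF. Smooth muscle genes summed to 6783 to 7505 CPM in COL and 6652 to 8110 CPM in SPF. The first GF library held follicle RNA, with Cr2 at 19.3 CPM against 0 and 0.133 CPM in the other two. It enters the shared estimate of spread, and results that move without it are given with and without it.

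Of 13233 genes tested, 13 (0.0982%) differed between COL and SPF at a Benjamini-Hochberg adjusted p under 0.05 in edgeR's quasi-likelihood test. COL was higher in 3 (0.0227%) and lower in 10 (0.0756%). The median log2 fold change over all genes was -0.002, and 50.2% lay below 0. At an unadjusted p under 0.05 there were 467 higher (3.53%) and 581 lower genes (4.39%), and the 2 groups did not overlap in 1884 genes (14.2%), with COL higher in 6.42% and lower in 7.81% of genes. The genes lower in COL were those of plasma cells (Jchain, Derl3, Tnfrsf17), MHC class II presentation (H2-DMb1, Cd74), lymphocyte homing and signalling (Itgb7, Il2rb, Selplg), the surface antigen gene Ly6c2 and Ceacam10. Those higher in COL were Tfcp2l1, Apoa4 and Arg2. The count was 8 without the third COL library and 21 without the first GF library, and a fit of the 6 libraries alone called 66 genes (17 higher, 49 lower), among them all 13. COL against GF and SPF against GF, given as values for single genes, share these libraries with the comparison; 614 (4.64%) and 1018 genes (7.69%) were called in them. No label states whether the libraries within a group are from different mice, so p-values measure the spread between libraries, which may be technical in part.

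**Figure D1:**
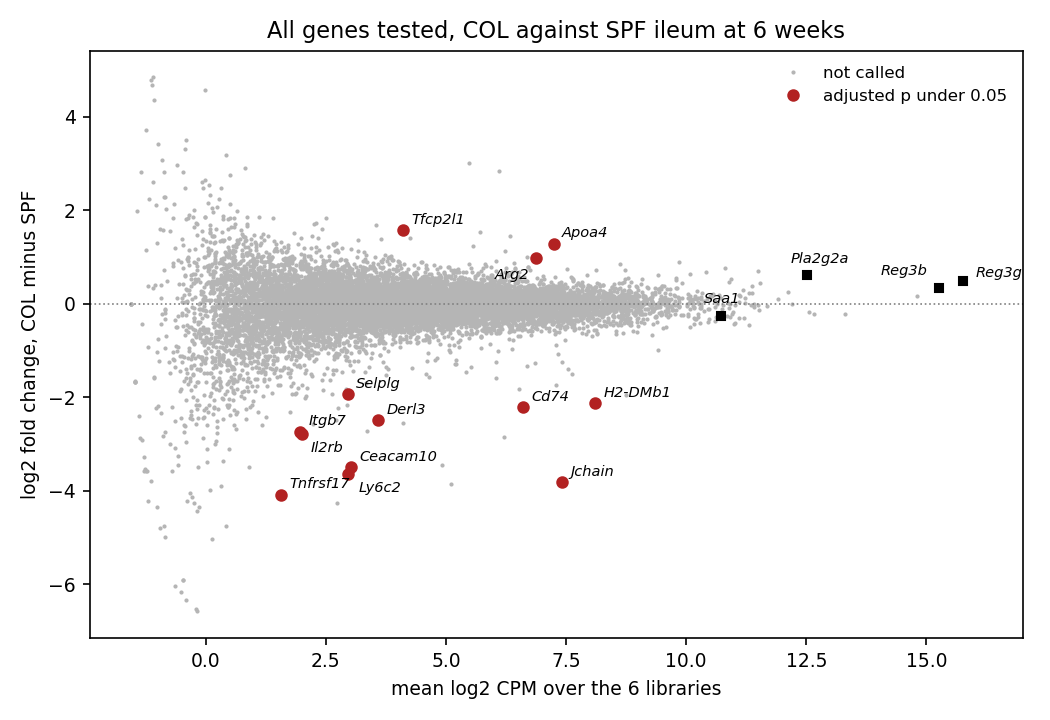
Log2 fold change of COL minus SPF at 6 weeks (y axis) against mean log2 CPM over the 6 libraries (x axis) for each of the 13233 genes tested. Red points are the 13 genes with adjusted p under 0.05, of which 10 lie below 0; black squares mark 4 abundant antimicrobial and acute phase genes, which were not called.

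Genes of IgA plasma cells were lower in COL. Jchain, which encodes the peptide that joins IgA monomers (chromosome 5, 88519809 to 88527891, minus strand, mm10), was at 52.6, 58.2 and 28.0 CPM in COL and 648, 617 and 677 CPM in SPF. The groups were far apart, a 14.1-fold difference (log2 fold change -3.81 ± 0.39 SE, adjusted p 0.000136). GF libraries held 88.2, 26.5 and 47.9 CPM and overlapped with COL.

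Tnfrsf17 encodes BCMA, the receptor that keeps plasma cells alive (chromosome 16, 11313812 to 11320074, plus strand). It was at 1.22, 0.443 and 0.152 CPM in COL, 9 reads in all, and 7.92, 11.1 and 11.2 CPM in SPF (-4.08 ± 0.56, adjusted p 0.000267). Derl3, a component of the pathway that clears misfolded proteins from the endoplasmic reticulum of secretory cells (chromosome 10, 75893413 to 75895941, plus strand), was at 5.68, 4.20 and 4.85 CPM in COL and 31.5, 25.0 and 26.3 CPM in SPF (-2.48 ± 0.32, adjusted p 0.000136). For both genes each COL library lay below each SPF library.

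Of the 14 genes tested in the plasma cell list, 3 were lower and none higher at the adjusted threshold. The median was -1.71, 13 lay below 0, and 10 did not overlap between groups, COL being lower (7.81% of all genes). Mzb1, a chaperone of immunoglobulin assembly, was at 45.5, 36.7 and 9.55 CPM in COL and 191, 208 and 252 CPM in SPF, with an adjusted p of 0.139. Irf4, a transcription factor of plasma cell fate that T cells also use, was at 6.90, 1.77 and 1.36 CPM in COL and 13.4, 14.5 and 18.2 CPM in SPF (adjusted p 0.408). For the homing receptor Ccr10 the values were 2.64, 3.10 and 0.758 CPM in COL against 6.02, 5.81 and 9.31 CPM in SPF (adjusted p 0.328). These 3 genes did not overlap between groups and did not pass the test. Irf4 passed in the fit of the 6 libraries alone (adjusted p 0.0295), in which 5 of the 14 genes were called. Mzb1 (0.26) and Ccr10 (0.175) did not pass in that fit.

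Members that epithelial cells also express overlapped between the groups. Xbp1, a transcription factor of secretory cells, was at 373, 374 and 345 CPM in COL and 568, 541 and 348 CPM in SPF (-0.41 ± 0.19, adjusted p 0.608). Pigr, the polymeric immunoglobulin receptor that carries IgA across the epithelium, was at 1811, 1485 and 2010 CPM in COL and 2639, 2797 and 1759 CPM in SPF (-0.44 ± 0.19, adjusted p 0.565). In GF, Pigr was at 437, 422 and 437 CPM, below each COL library. Genes for immunoglobulin chains were not analysed here. Genes of follicular and germinal centre B cells were not called in any of 20 tested, with a median of 0.03, and summed to 43.8 to 62.8 CPM in COL and 29.9 to 38.4 CPM in SPF.

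MHC class II genes were lower in COL. H2-DMb1 encodes a chain of H2-DM, which loads peptides onto class II molecules (chromosome 17, 34153072 to 34160230, plus strand). It was at 130.5, 108 and 159 CPM in COL and 569, 645 and 516 CPM in SPF, a 4.34-fold difference (-2.12 ± 0.24, adjusted p 7.06e-05). With 38.4, 24.3 and 32.2 CPM in GF, each COL library lay between the GF and the SPF ranges, and COL exceeded GF by 2.07 (adjusted p 2.17e-05). The near-identical neighbour H2-DMb2 had 3 reads in COL and 22 in SPF, and reads that aligned to more than one place were not counted to genes. Cd74, the invariant chain that guides class II molecules to the endosome, was at 50.5, 36.3 and 48.2 CPM in COL and 246, 201 and 182 CPM in SPF (-2.22 ± 0.33, adjusted p 0.00634). Without the second or the third COL library its adjusted p was 0.0832 or 0.0715. GF held 48.6, 17.7 and 14.8 CPM of Cd74, the first being the library with follicle RNA.

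Promoters of class II genes share short elements, the X and Y boxes, that bind RFX and NF-Y and recruit CIITA. Stretches around the starts of 3 of these genes, chosen by hand, are shown. Each gene was lower in every COL than in every SPF library, as were 8 class II list genes in all, and each held the Y-box letters. The stretches are from RefSeq promoter windows (GRCm38.p6), and capitals mark the Y-box letters TGATTGG. Capitals also mark, where present, a run of 13 letters, AACTGATGATGCT, shared by the first pair, which overlaps their X box. X boxes of other letters are not marked.
H2-DMb1, chr17:34153068-34153144, plus strand: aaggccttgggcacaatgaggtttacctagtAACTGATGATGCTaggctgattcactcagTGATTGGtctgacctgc
H2-Eb1, chr17:34305746-34305822, plus strand: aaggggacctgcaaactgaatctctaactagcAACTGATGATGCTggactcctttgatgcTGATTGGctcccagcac
H2-Aa, chr17:34287857-34287933, minus strand: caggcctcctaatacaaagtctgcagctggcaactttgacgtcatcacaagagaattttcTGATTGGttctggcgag

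The Y-box letters started 63, 61 and 50 bases before the RefSeq start in H2-DMb1, H2-Eb1 and H2-Aa. In the first pair they followed the shared run after 16 and 15 bases. Of the 9 class II list genes with a window, 6 held TGATTGG on either strand, as did 7.82% of all 32851 windows of 300 bases. The run AACTGATGATGCT, chosen because H2-DMb1 and H2-Eb1 share it, stood in 3 windows (0.00913%). RefSeq and GENCODE place the start of H2-DMb1 differently: the GENCODE gene, given above, begins within the stretch printed, near its 5′ end. A match describes the letters in the window and shows no binding.

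The classical class II chains H2-Aa and H2-Eb1 had the same order of groups with wider spread. H2-Aa, the alpha chain of I-A, was at 230, 138 and 308 CPM in COL and 975, 973 and 681 CPM in SPF (-1.96 ± 0.58, adjusted p 0.414). H2-Eb1, the beta chain of I-E, was at 104, 102 and 142 CPM in COL and 344, 296 and 272 CPM in SPF (-1.39 ± 0.47, adjusted p 0.493). The coactivator Ciita was at 5.68, 1.55 and 2.27 CPM in COL and 12.5, 11.6 and 12.1 CPM in SPF (-1.93 ± 0.67, adjusted p 0.499). None of these 3 overlapped between COL and SPF. The first GF library held 266 CPM of H2-Aa against 67.2 and 46.2 CPM in the other two. Without it the adjusted p was 0.0436 for H2-Aa, 0.0251 for H2-Eb1 and 0.406 for Ciita. With the 6 libraries alone the adjusted p was 0.00271, 0.000103 and 0.0269 in that order. H2-Ab1, another classical chain, had a log2 fold change of -1.73 (adjusted p 0.554). H2-Ab1 passed neither without the first GF library (0.223) nor with the 6 libraries alone (0.0641).

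Of 12 class II list genes tested, 2 were lower at the adjusted threshold. In 8 the groups did not overlap with COL lower (7.81% of all genes), and the median was -1.60. The counts called were 5 without the first GF library and 6 with the 6 libraries alone, 1 without the second and 1 without the third COL library. The endosomal protease Ctss and the thiol reductase Ifi30 lay on the other side of 0. Ifi30 was at 175, 163 and 235 CPM in COL and 146, 132 and 106 CPM in SPF (0.58 ± 0.21, adjusted p 0.459). Among genes of other class II-bearing cells, those of dendritic cells and macrophages were at lower sums in COL. Those of follicular and germinal centre B cells were at higher sums, 43.8 to 62.8 CPM in COL and 29.9 to 38.4 CPM in SPF. Dendritic cell genes summed to 364 to 399.8 CPM in COL and 402 to 446 CPM in SPF (0 of 13 called), and macrophage genes to 514 to 602 CPM and 614 to 661 CPM (0 of 20 called). The dendritic cell marker Flt3 had 1 read in COL and 29 in SPF. The part of these cell types in the class II difference was not tested.

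**Figure D2:**
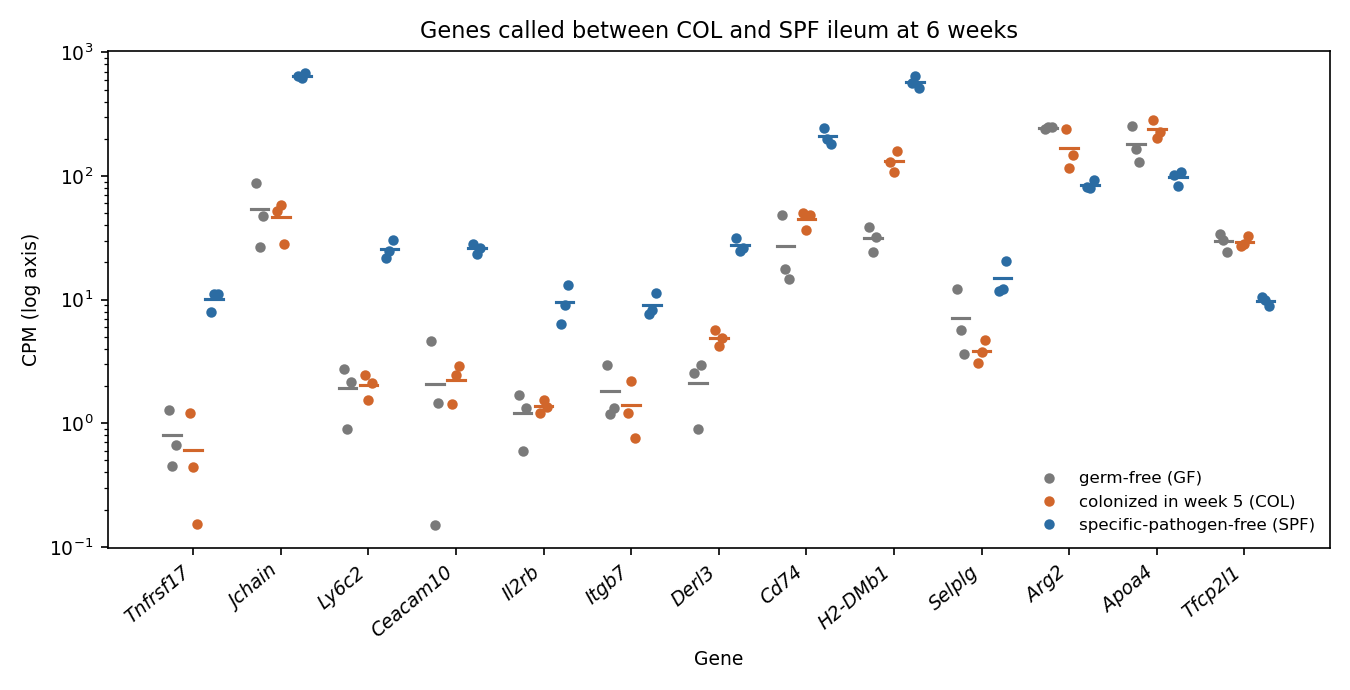
CPM on a log axis of the 13 called genes in the 3 GF, 3 COL and 3 SPF libraries at 6 weeks. Points are libraries and bars are group means. COL and SPF points are apart in every gene shown. COL overlaps GF for Jchain, Ly6c2, Ceacam10, Tfcp2l1, Apoa4 and Cd74, among others, and lies above GF for H2-DMb1.

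Of the other genes lower in COL, most are known from lymphocytes and myeloid cells. Ly6c2 encodes a surface antigen of monocytes that memory T cells and plasma cells also carry (chromosome 15, 75108158 to 75111970, minus strand). It was at 2.44, 1.55 and 2.12 CPM in COL and 21.6, 24.8 and 30.5 CPM in SPF, a 12.4-fold difference (-3.63 ± 0.30, adjusted p 8.72e-08). GF libraries held 2.76, 0.894 and 2.14 CPM and overlapped with COL. The near copy Ly6c1 overlapped between groups, with 154 reads in COL and 279 in SPF. The monocyte and neutrophil list summed to 571 to 740 CPM in COL and 808 to 1134 CPM in SPF, most of it from Plac8, a gene of several leukocytes and of epithelium, at 540, 715 and 698 CPM in COL and 1083, 938 and 751 CPM in SPF (adjusted p 0.446). The part of these cells in the Ly6c2 difference was not tested. The neutrophil gene S100a8 had 2 reads in COL and 16 in SPF, and Ccr2 was at 0.443 to 2.23 CPM in COL and 2.04 to 3.08 CPM in SPF. Of the 7 tested genes in that list, Ly6c2 was the 1 called.

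Itgb7, Il2rb and Selplg passed the test but fell outside the rule for named genes and are named after their values were seen. Itgb7, the integrin chain of gut-homing and intraepithelial lymphocytes (chromosome 15, 102215995 to 102231944, minus strand), was at 1.22, 2.21 and 0.758 CPM in COL and 7.63, 8.28 and 11.3 CPM in SPF (-2.73 ± 0.46, adjusted p 0.0051). Il2rb, the receptor chain for interleukins 2 and 15, was at 1.22, 1.55 and 1.36 CPM in COL and 6.31, 9.02 and 13.2 CPM in SPF (-2.77 ± 0.53, adjusted p 0.0245). Selplg, the leukocyte ligand of selectins, was at 3.04, 3.76 and 4.70 CPM in COL and 11.7, 12.1 and 20.6 CPM in SPF (-1.93 ± 0.38, adjusted p 0.0278). In all 3 the third SPF library was the highest. The call of Il2rb was lost without any 1 COL library or without the second or the third SPF library (adjusted p 0.0763 to 0.208). That of Selplg was lost without any 1 COL library or without the third SPF library (0.107 to 0.181), and that of Itgb7 without the third COL library (0.11).

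The list of T cells and intraepithelial lymphocytes had no called gene, although each of its 18 tested genes lay below 0. The median was -2.65, 14 did not overlap with COL lower (7.81% of all genes), and 12 had an unadjusted p under 0.05 (4.39%). Gzma, a granule protease of cytotoxic lymphocytes, was at 11.2, 11.3 and 5.91 CPM in COL and 95.4, 106 and 201 CPM in SPF (-3.85 ± 0.68, adjusted p 0.0684). Gzmb, another, was at 3.65, 3.54 and 4.55 CPM in COL and 21.3, 17.7 and 39.1 CPM in SPF (-2.71 ± 0.71, adjusted p 0.241). The third SPF library was the highest for both proteases, and the COL and SPF ranges did not touch. Both passed without the first GF library (adjusted p 0.00444 and 0.000389) and with the 6 libraries alone (adjusted p 0.000271 and 0.000102).

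Genes of the T cell receptor complex were near the detection limit in COL. Cd3e had 2 reads in COL and 85 in SPF, a ratio in CPM of 31.3 with a 95% counting interval of 8.40 to 263. Cd3g had 3 and 65 reads, a ratio of 16 with an interval of 5.22 to 79.4. These intervals cover counting error only. Ccl5, a chemokine of effector T cells, was at 0.609, 2.43 and 1.97 CPM in COL and 12.5, 15.6 and 69.5 CPM in SPF (-4.25 ± 1.06, adjusted p 0.241), with the third SPF library several times the other two. Itgae, the integrin chain CD103 that holds lymphocytes in the epithelium, overlapped, with 3.65, 3.76 and 5.91 CPM in COL and 4.99, 4.08 and 9.89 CPM in SPF (adjusted p 0.834). The 18 genes and the few untested members summed to 31.3, 32.3 and 33.0 CPM in COL, 178, 193 and 407 CPM in SPF and 53.9, 9.09 and 8.54 CPM in GF. With the 6 libraries alone 6 genes of the list were called, and 4 without the first GF library. Ccl5 passed in neither fit (adjusted p 0.344 and 0.124).

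Ceacam10, a secreted member of the carcinoembryonic antigen family (chromosome 7, 24777206 to 24784657, plus strand), was at 1.42, 2.43 and 2.88 CPM in COL and 28.2, 23.3 and 26.3 CPM in SPF. This 11.3-fold difference (-3.49 ± 0.54, adjusted p 0.014) stood beside 4.67, 0.149 and 1.47 CPM in GF. The adjusted p exceeded 0.05 when any COL library (0.0905 to 0.11) or the first SPF library (0.0586) was left out.

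Several other genes known to respond to bacteria overlapped between COL and SPF and were far above GF in both. Reg3g, a C-type lectin that kills Gram-positive bacteria, was at 49100, 69829 and 87202 CPM in COL, 61882, 56763 and 27902 CPM in SPF and 2447, 1502 and 1201 CPM in GF. COL exceeded GF by 5.32 ± 0.58 on the log2 scale (adjusted p 0.000107), and COL and SPF differed by 0.49 ± 0.48 (adjusted p 0.855). Nos2, the inducible nitric oxide synthase, was at 153, 240 and 265 CPM in COL, 492, 394 and 170 CPM in SPF and 6.79, 1.49 and 6.01 CPM in GF (-0.68 ± 0.46, adjusted p 0.777). Saa1, an acute phase protein, was at 707, 1988 and 2970 CPM in COL and 2969, 3192 and 589 CPM in SPF, and at 4.88, 0.894 and 0.801 CPM in GF. For each of these 3 genes COL and SPF overlapped, the third SPF library was the lowest of its group, and the first COL library the lowest of its own. Fut2, the fucosyltransferase that decorates the ileal surface, followed the same order, at 30.6, 129 and 57.1 CPM in COL and 165, 157 and 43.0 CPM in SPF, and had no read in GF. Retnlb, a goblet cell resistin-like protein, was at 897 to 1834 CPM in COL and 644 to 1088 CPM in SPF (adjusted p 0.824). Of 23 genes tested in this list 2 were called, both lower: Ceacam10 and Tnfrsf17, the plasma cell gene that was also placed here. The median was -0.25. In 3 of the 23 the groups did not overlap with COL higher and in 4 with COL lower (6.42% and 7.81% of all genes). At an unadjusted p under 0.05 there were 4 higher and 5 lower (3.53% and 4.39% of all genes).

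**Figure D3:**
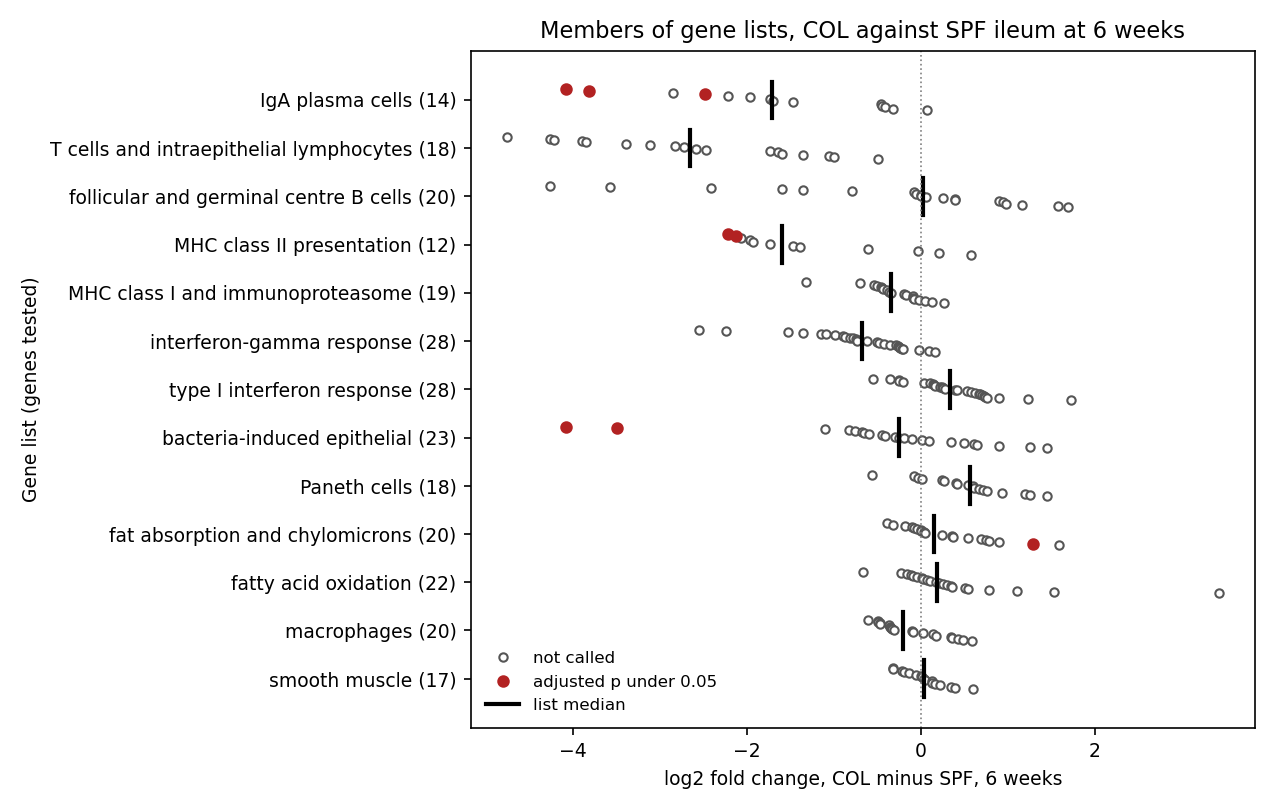
Log2 fold change of COL minus SPF at 6 weeks for each tested member of 13 gene lists (number tested in parentheses). Filled points passed an adjusted p under 0.05 and bars are medians; the T cell list has the lowest median (-2.65) of those drawn and no filled point, and Tnfrsf17 appears in 2 lists.

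Genes induced by interferon-gamma lay lower in COL without passing the test. Of 28 tested, 26 were below 0 and 12 did not overlap with COL lower (7.81% of all genes). The median was -0.67, with 0 called and 9 at an unadjusted p under 0.05 (4.39% of all genes). Socs1, a feedback inhibitor of cytokine signalling, was at 6.09, 6.86 and 10.9 CPM in COL and 27.9, 25.7 and 15.7 CPM in SPF (-1.52 ± 0.36, adjusted p 0.116). Iigp1, an immunity-related GTPase, was at 14.4, 23.9 and 18.5 CPM in COL and 47.1, 42.1 and 36.5 CPM in SPF (-1.15 ± 0.28, adjusted p 0.139). Cxcl9, a chemokine for activated T cells, was at 4.67, 8.63 and 12.7 CPM in COL and 23.8, 29.2 and 14.5 CPM in SPF (-1.36 ± 0.35, adjusted p 0.181). Each lay between GF, where they were at 0.745 to 5.30 CPM, and SPF. Socs1 and Iigp1 passed with the 6 libraries alone (adjusted p 0.0149 and 0.0135), and Cxcl9 did not (0.101). Reads of interferon-gamma itself were too few to test, with none in COL and 4 in SPF.

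MHC class I and immunoproteasome genes had a median of -0.34 with 0 of 19 called. The immunoproteasome subunit Psmb9 was at 147, 129 and 155 CPM in COL and 195, 215 and 183 CPM in SPF (-0.46 ± 0.16, adjusted p 0.463), against 47.5 to 61.7 CPM in GF. H2-K1, a classical class I heavy chain, was at 263, 415 and 359 CPM in COL and 438, 465 and 514 CPM in SPF (adjusted p 0.551). Neither overlapped. B2m, the class I light chain, did, at 1970 to 2859 CPM in COL and 1940 to 2616 CPM in SPF (adjusted p 0.942).

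Genes of the type I interferon response lay on the other side. Of 28 tested, 23 were above 0 and 11 did not overlap with COL higher (6.42% of all genes). The median was 0.34, with 0 called and 6 at an unadjusted p under 0.05 (3.53% of all genes). Rsad2, which encodes the antiviral protein viperin, was at 51.3, 104 and 65.3 CPM in COL, 27.7, 35.3 and 30.2 CPM in SPF and 22.2 to 24.4 CPM in GF (1.24 ± 0.28, adjusted p 0.0904). Irf9, the DNA-binding subunit of the interferon-activated complex, was at 115, 121 and 187 CPM in COL and 80.1, 104 and 71.8 CPM in SPF (0.73 ± 0.20, adjusted p 0.207). COL was above SPF in each library for both. Rsad2 passed with the 6 libraries alone (adjusted p 0.00802), and Irf9 did not (0.135).

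Paneth cell genes were at higher levels in COL, again with 0 called. Of 18 tested, 15 were above 0, 8 did not overlap with COL higher (6.42% of all genes), and the median was 0.57. Ang4, a bactericidal ribonuclease of Paneth cells, was at 242, 206 and 295 CPM in COL, 100.4, 99.9 and 110 CPM in SPF and 66.2, 67.5 and 53.4 CPM in GF (1.26 ± 0.32, adjusted p 0.241). Lyz1, Paneth cell lysozyme, was at 2089, 2157 and 2794 CPM in COL and 1394, 1314 and 1440 CPM in SPF (0.76 ± 0.33, adjusted p 0.593), against 418 to 540 CPM in GF. Mptx2, a pentraxin of Paneth cells, was at 94.0, 165 and 143 CPM in COL and 44.2, 58.2 and 44.8 CPM in SPF (1.45 ± 0.47, adjusted p 0.433), and had at most 0.212 CPM in a GF library. All 3 did not overlap between COL and SPF, and all 3 passed with the 6 libraries alone (adjusted p 0.000226, 0.0265 and 0.000359). Pla2g2a, an antibacterial phospholipase, was at 6932, 6327 and 8693 CPM in COL and 5105, 4512 and 4715 CPM in SPF (0.62 ± 0.22, adjusted p 0.447). It did not pass with the 6 libraries alone (adjusted p 0.141). The alpha-defensin genes have near-identical copies and their counts are uncertain. Defa24 was at 1636 to 1839 CPM in COL and 854 to 1294 CPM in SPF, and Defa22 at 16.5 to 23.2 CPM and 22 to 37.5 CPM.

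Among the genes higher in COL, Tfcp2l1 encodes a transcription factor of epithelial and pluripotent cells (chromosome 1, 118627945 to 118685168, plus strand). It was at 27.0, 28.1 and 32.7 CPM in COL, 10.4, 10.0 and 8.87 CPM in SPF and 34.1, 30.4 and 24.4 CPM in GF. COL was 3-fold above SPF (1.58 ± 0.23, adjusted p 0.000721) and differed from GF by -0.01 (adjusted p 0.986).

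Apoa4 encodes apolipoprotein A-IV, which villus cells secrete with chylomicrons (chromosome 9, 46240696 to 46243459, plus strand). It was at 283, 202 and 229 CPM in COL and 101, 82.6 and 109 CPM in SPF, a 2.44-fold difference (1.29 ± 0.21, adjusted p 0.00384), with 255, 165 and 129 CPM in GF. Without the second SPF library the adjusted p was 0.0695. Arg2, the mitochondrial arginase (chromosome 12, 79130777 to 79156301, plus strand), was at 241, 116 and 149 CPM in COL, 82.0, 80.7 and 93.2 CPM in SPF and 241, 251 and 248 CPM in GF (0.98 ± 0.20, adjusted p 0.036). The first COL library was at the GF level, and without it the difference was 0.64 and the adjusted p 0.303. The adjusted p was 0.0715 without the third COL library and 0.0674 to 0.259 when an SPF library was left out.

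Of 20 genes of fat absorption tested, Apoa4 was the 1 called, and the median was 0.15. Plin2, a lipid droplet coat protein, was at 125, 115 and 172 CPM in COL and 79.5, 86.2 and 72.6 CPM in SPF (0.79 ± 0.20, adjusted p 0.144). Creb3l3, a transcription factor that drives apolipoprotein genes, was at 216, 201 and 304 CPM in COL and 145, 161 and 121 CPM in SPF (0.75 ± 0.20, adjusted p 0.223). Fabp2, the intestinal fatty acid binding protein, was at 4144, 3090 and 3844 CPM in COL, 2441, 2283 and 2133 CPM in SPF and 4575 to 7337 CPM in GF (0.69 ± 0.23, adjusted p 0.414). In all 3, COL and SPF were apart with COL higher. Mttp and Dgat1, genes of chylomicron assembly and of triglyceride synthesis, overlapped (0.01 and -0.04). Adipose tissue genes summed to 217 to 241 CPM in COL and 138 to 162 CPM in SPF, with 0 of 11 called, 9 above 0 and a median of 1.15. The fat cell hormone Adipoq had no read in 2 COL libraries, 4.65 CPM in the other and 0 to 1.61 CPM in SPF. Their part in the higher lipid genes was not tested.

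For fatty acid oxidation 0 of 22 genes were called and the median was 0.19. Pdk4, a kinase that turns off pyruvate oxidation, was at 18.9, 8.63 and 15.3 CPM in COL and 6.31, 4.94 and 8.72 CPM in SPF (1.11 ± 0.31, adjusted p 0.241), the ranges overlapping slightly. Ppara, the nuclear receptor that controls these genes, was at 63.1 to 123 CPM in COL and 58.8 to 74.4 CPM in SPF (adjusted p 0.631).

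Heat shock genes were high in COL, with unequal libraries. Hspa1b, an inducible heat shock protein, was at 79.4, 339 and 185 CPM in COL, 32.6, 32.5 and 18.9 CPM in SPF and 12.7 to 17.2 CPM in GF (2.84 ± 0.54, adjusted p 0.0904). Its near-identical copy Hspa1a was at 34.1, 279 and 143 CPM in COL and 25.1, 21.2 and 10.5 CPM in SPF (adjusted p 0.201). With the 6 libraries alone the adjusted p was 0.298 for Hspa1b and 0.449 for Hspa1a. The cytosolic chaperone Hsp90aa1 was at 88.9, 160 and 107 CPM in COL and 80.0, 71.1 and 69.8 CPM in SPF (adjusted p 0.241). Immediate early genes did not share this order: Fos was at 19.9 to 26.8 CPM in COL and 19.8 to 23 CPM in SPF, and the whole list of 19 had a median of 0.00 with 0 called. The summed list ran from 1103 to 1817 CPM in COL and from 903 to 1034 CPM in SPF.

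Other epithelial programmes showed small medians. Genes of mucosal glycosyltransferases had a median of -0.40 (0 of 19 called). St6gal1, a sialyltransferase, was at 5.07, 6.64 and 5.91 CPM in COL and 14.5, 13.0 and 21.4 CPM in SPF (-1.47 ± 0.41, adjusted p 0.241). Ces2a, a carboxylesterase of xenobiotic metabolism, was at 68.8, 79.4 and 79.1 CPM in COL, 209, 219 and 119 CPM in SPF and 60.5 to 103 CPM in GF (-1.27 ± 0.28, adjusted p 0.0977). Both were apart, and both passed with the 6 libraries alone (adjusted p 0.0258 and 0.00271). Cell cycle genes had a median of 0.13 (0 of 28 called), goblet cell genes 0.09 (0 of 20) and bile acid genes 0.02 (0 of 11). Macrophage genes had a median of -0.20: Csf1r, the receptor for their growth factor, was at 7.31, 9.29 and 13.5 CPM in COL and 14.4, 14.2 and 13.5 CPM in SPF (-0.47 ± 0.29, adjusted p 0.738), and Adgre1, which encodes F4/80, at 3.65, 5.09 and 3.64 CPM and 3.37, 2.47 and 2.33 CPM (0.59 ± 0.52, adjusted p 0.838).

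In the libraries taken at 10 weeks, COL was no longer below SPF in Jchain, Tnfrsf17, Derl3 and H2-DMb1, all called at 6 weeks. Of 13233 genes, 22 (0.166%) had a COL minus SPF difference at 10 weeks that was not that at 6 weeks (interaction, adjusted p under 0.05). Between COL and SPF at 10 weeks, 12 genes (0.0907%) were called. Of 12 class II list genes tested, 1 (H2-DMb1) had a called interaction, and the list median at 10 weeks was -0.17. Cd74, Itgb7, Il2rb and Selplg, also called lower at 6 weeks, had no called interaction. The list of T cells and intraepithelial lymphocytes had a median of -1.19 at 10 weeks, with 0 of 18 interactions called. The interaction count ranged from 9 to 168 when one library was left out, the latter without the first SPF library at 10 weeks.

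Jchain stood at 1142, 875 and 1262 CPM in COL and 618, 965 and 828 CPM in SPF at 10 weeks (0.44 ± 0.34, adjusted p 0.813), and H2-DMb1 at 942, 632 and 479 CPM and 464, 589 and 427 CPM (0.47 ± 0.23, adjusted p 0.641). Ly6c2 was at 50.3, 48.3 and 43.8 CPM in COL and 35.7, 44.3 and 41.8 CPM in SPF (0.23 ± 0.24, adjusted p 0.868). For these 3 genes the difference from 6 weeks was itself called, with interaction terms of 4.26, 2.59 and 3.86. All 3 were also called at 6 weeks, and the same 6-week libraries enter the term. The term is therefore not independent of that call. SPF levels of Ly6c2 at the ages did not overlap, so its term holds both groups' values. GF at 10 weeks stayed at 39.9 to 69.2 CPM of Jchain. Gzma stood at 70.9, 45.1 and 63.3 CPM in COL and 155, 193 and 530 CPM in SPF, apart as at 6 weeks (-2.28 ± 0.60, adjusted p 0.292), and its interaction was not called (1.57, adjusted p 0.576).

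Of the 3 genes higher in COL at 6 weeks, Apoa4 and Arg2 were at lower values in COL than in SPF at 10 weeks. Apoa4 was at 156, 160 and 119 CPM in COL and 236, 296 and 327 CPM in SPF (-0.98 ± 0.21, adjusted p 0.0661), and Arg2 at 112, 90.0 and 88.2 CPM and 143, 177 and 202 CPM (-0.84 ± 0.20, adjusted p 0.129). Their interactions were called (-2.26 and -1.83), in terms that hold the same 6-week libraries as the first call. SPF levels of Apoa4 and of Arg2 at the ages did not overlap, so the terms hold both groups' values. Tfcp2l1 was still on the same side at 17.8, 19.2 and 23.6 CPM in COL and 13.3, 10.6 and 19.7 CPM in SPF (0.52 ± 0.24, adjusted p 0.578; interaction -1.06, adjusted p 0.219). Hspa1b, which was not called at 6 weeks, was called at 10 weeks, higher in COL by 4.21 ± 0.58 (adjusted p 0.0185).

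**Figure D4:**
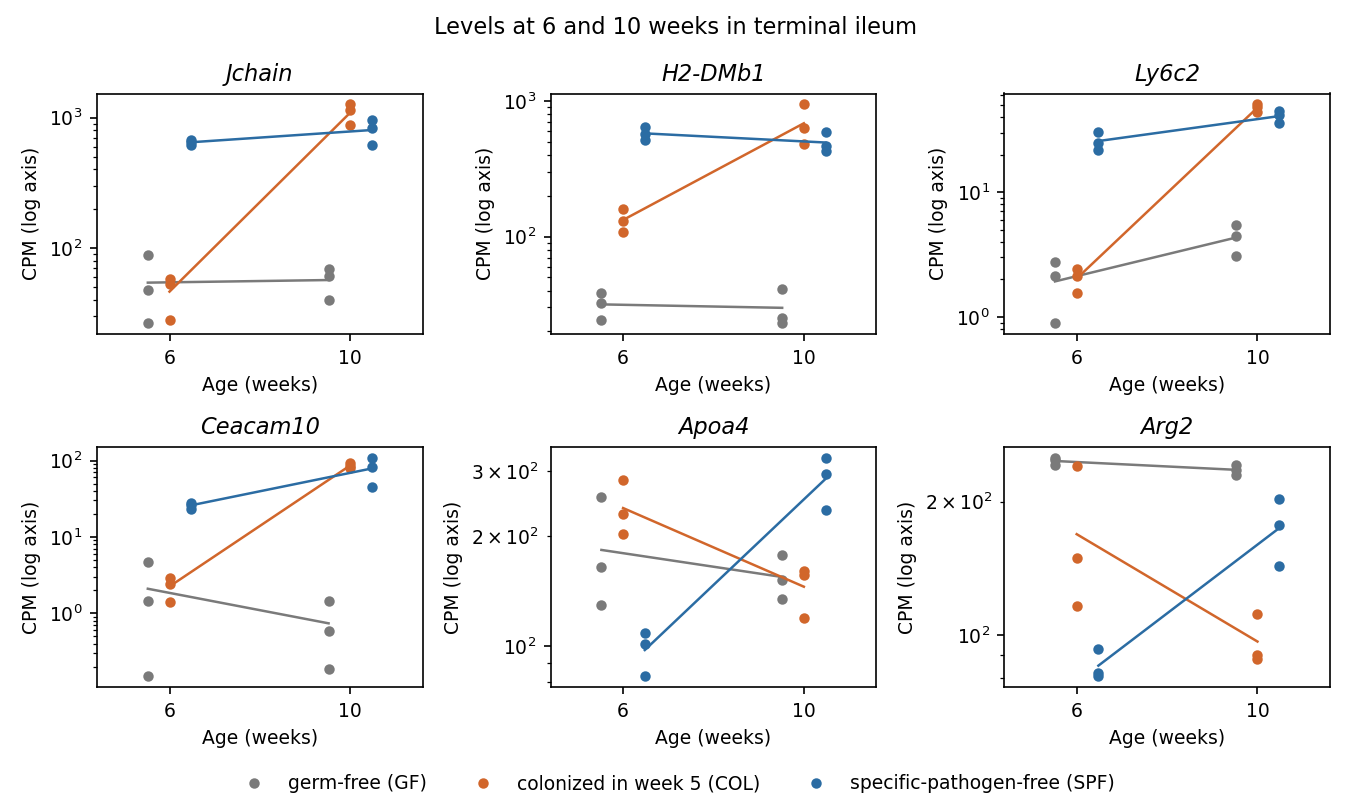
CPM on log axes, with a scale of its own per gene, in GF, COL and SPF libraries at 6 and 10 weeks of age. Points are libraries (3 per group) and lines join group means of different libraries; Jchain in COL goes from 28.0 to 58.2 CPM at 6 weeks to 875 to 1262 CPM at 10 weeks.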

How the data were processed

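Total RNA of whole terminal ileum was made into 3′ mRNA libraries and sequenced on an Ion Torrent instrument, per the labels' protocols. The deposited files hold raw read counts per gene for each library. Per the submitters' processing notes, Trimmomatic 0.36, FastQC 0.11.5, STAR 2.5.3a, HTSeq and the build mm10 were used; the strand setting, the annotation and the HTSeq version are not given in the sources used here. Reads of copies that share sequence, of overlapping and of antisense genes are therefore uncertain. Rows that name no gene were dropped: 49.0 to 54.1% of reads were assigned to genes and 29.9 to 33.0% aligned to more than one place.

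Of 24746 genes, 13233 passed filterByExpr. One edgeR 4.0.16 quasi-likelihood model (R 4.3.3, limma 3.58.1, TMM scaling, robust) held all 18 ileum libraries as 6 groups of 3 with no covariate, and p-values were Benjamini-Hochberg adjusted over all genes tested. Errors of log2 fold changes are the fold change divided by the root of the F statistic. CPM are TMM-scaled. With 3 against 3 libraries an exact permutation test of 1 gene cannot go below 0.1. On simulated data for COL against SPF (13100 genes), 50.7% of 2-fold, 76.1% of 4-fold and 97% of 8-fold changes were recovered, with 9 false calls. The simulation held 67, 67 and 66 changed genes of these sizes, more than were called here. That eases the adjusted threshold, so these shares need not hold for the data. Pairs of libraries within a group differed by more than sampling noise, with a chi-square of 5.46 to 26.3 times its degrees of freedom. The value was 5.46 for SPF libraries 1 and 2, and 26.3 and 25 for the third SPF library against them. It was 15.7 to 24.7 within COL. All libraries were kept.

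The comparison, the 40 gene lists (764 of 777 genes in the files) and the rule for named genes were chosen with earlier results of these data known. The rule took called genes with the largest changes at a mean log2 CPM of at least 3, up to 4 called members or the smallest p of each list, 16 fixed genes, of which the immunoglobulin gene was not analysed here, and the 5 smallest p of the interaction. Other genes were named after their values were seen. Gene locations are from GENCODE on mm10. Alternatives were DESeq2 1.42.0, other size factors, no filter, the compared libraries alone, a replicate block and leaving out each library. Leaving out the first GF library was chosen after seeing the data. Some genes that the rule named are not reported here.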

Additional observations from a re-analysis of the deposited data

Results flagged for a closer look

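For 13 genes named here the COL minus SPF difference at 10 weeks was not that at 6 weeks, by the interaction term of edgeR's quasi-likelihood model (10 weeks minus 6 weeks, log2 scale). These are 13 of the 22 genes called over the whole table. Of these 13, all but Tm4sf4 were named after their values were seen or through the 6-week comparison. The term reuses the 6-week libraries, so for genes called at 6 weeks it is not independent of that call.

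In the positive direction, genes lower in COL at 6 weeks were at or above SPF in COL at 10 weeks. The term was 4.26 ± 0.51 for Jchain (adjusted p 0.00114), 4.14 ± 0.71 for Tnfrsf17 (adjusted p 0.00754) and 2.69 ± 0.42 for Derl3 (adjusted p 0.002), all genes of plasma cells. It was 3.86 ± 0.39 for Ly6c2 (adjusted p 4e-06) and 2.59 ± 0.34 for H2-DMb1 (adjusted p 0.000372). Ceacam10 (3.64 ± 0.69) and the interferon-induced GTPase gene Gbp7 (1.32 ± 0.28) both had an adjusted p of 0.0497. Each of these 2 calls was lost in 12 of 19 alternatives (highest adjusted p 0.194 and 0.183).

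In the negative direction were Arg2, Tm4sf4 and genes of lipid and energy metabolism. The term was -2.26 ± 0.30 for Apoa4 (adjusted p 0.000334), -1.83 ± 0.28 for Arg2 (adjusted p 0.00144) and -1.85 for Tm4sf4, a membrane protein gene (adjusted p 0.00114). It was -4.31 ± 0.74 for the fatty acid binding protein gene Fabp1 (adjusted p 0.0392), with 2.64, 3.03 and 0.513 CPM in COL and 38.1, 16.4 and 7.20 CPM in SPF at 10 weeks against 42.0, 29.4 and 21.1 CPM and 15.3, 17.1 and 16.9 CPM at 6 weeks. The groups were thus apart at both ages, on opposite sides. It was -2.44 ± 0.47 for Pdk4 (adjusted p 0.0216) and -1.45 ± 0.29 for Creb3l3 (adjusted p 0.0371). These calls were lost in 10 of 19 alternatives for Fabp1, 9 for Pdk4 and 11 for Creb3l3, with highest adjusted p of 0.134, 0.12 and 0.257.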

How the results depend on the processing

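The count of 13 genes between COL and SPF at 6 weeks became 62 with DESeq2, 66 with the 6 libraries alone and 21 without the first GF library, and each of these sets held all 13. It was 8 to 18 when a library was left out, lowest without the third COL library. Same-numbered libraries did not deviate together (correlations -0.08, 0.03 and -0.08), so numbers were not taken as pairs; the replicate block gave 19 genes, and 60 with the 6 libraries alone. COL against GF (614) gave 951 with the block and its 6 libraries alone, and 311 to 751 with a library left out. SPF against GF (1018) gave 1604 with its 6 libraries alone, 1699 with the block added, and 513 to 944 with a library left out. At 10 weeks the 12 genes became 47 with DESeq2, 4 with the 6 libraries alone, 5 with the block added, and 5 to 97 with a library left out, the latter without the first SPF library. The interaction (22) gave 111 with DESeq2, 13 with its 12 libraries alone and 9 to 168 with a library left out. The cause of these shifts was not tested.

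Tfcp2l1, Jchain, Derl3, H2-DMb1, Tnfrsf17 and Ly6c2 passed in each of the 13 alternatives. Arg2 (adjusted p 0.0674) and Ceacam10 (0.0838) missed the threshold with the replicate block. None of the genes that reversed had passed the test. With a library left out, log2 fold changes of these genes ran from -1.27 to 0.60 for Alas2, -2.28 to 0.23 for Duox2, -0.74 to 0.14 for Saa1, -0.46 to 0.29 for Cd163 and -0.055 to 0.11 for Itln1, and the median of villus digestive enzymes ran from -0.034 to 0.045. Genes with few reads, such as Tnfrsf17, Cd3e and Itgb7, are limited by depth in COL.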
